A study of Mus musculus with 12 samples.

Results

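The difference between the fasting responses of wild-type and PPARα-null mice was measured in the small intestine, on all 12 of the 12 arrays of the series. For each probe set this interaction is the log2 change upon fasting in wild-type mice minus that in PPARα-null mice, so it is positive where a transcript rose more, or fell less, in wild-type mice. It was tested over the 9874 of 22690 probe sets with a mean intensity above 20 in at least 1 group, which represent 6107 genes. Groups held 3 arrays each, from male mice of 14 weeks: wild-type mice of strain 129S1/SvImJ and PPARα-null mice of strain 129S4/SvJae, either with free access to food or fasted for 24 h. The labels of the fed arrays name only 129Sv. All mice were kept on one diet, which the design text names as AIN93M and the study's methods as laboratory chow. PPARα-null mice lack the receptor in every tissue, and because both genotypes come from different substrains, genotype and substrain cannot be told apart. RNA came from the whole length of the small intestine, flushed and freed of fat and pancreas. The labels and methods do not say whether an array held RNA of 1 mouse or of several, so p-values measure the spread between these arrays only.

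PPARα is a nuclear receptor that fatty acids activate. It pairs with the retinoid X receptor on DNA and switches on genes for the uptake, transport and oxidation of fatty acids in mitochondria and peroxisomes. During fasting, fatty acids leave adipose tissue, and the receptor is known for its part in the hepatic response. The intestine expresses it mainly in the absorptive enterocytes of the villus.

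Several features of the arrays bear on the values below. The probe set for Ppara itself read 19.9, 34.0 and 35.9 in wild-type fed mice and 58.7, 48.1 and 30.8 in wild-type fasted mice. It read 6.84, 7.5 and 7.35 in PPARα-null fed mice and 13.2, 11.7 and 10.96 in PPARα-null fasted mice. All 6 PPARα-null arrays were below all 6 wild-type arrays, as the titles say, whereas the description of the wild-type fasted samples calls them knockout. The labels and methods do not say whether this probe set lies in the deleted part of the gene. Probe sets mostly read lower on fasted than on fed arrays, whatever the genotype, by a median of −0.30 (log2). Every change upon fasting below is given relative to this common shift, which has no effect on the interaction, and intensities are printed as deposited. Markers of the exocrine pancreas (17 measured genes) had a mean log2 intensity of 9.25 to 10.2 in wild-type fasted mice. In PPARα-null fasted mice it was 10.5 in replicate 1, 4.78 in replicate 2 and 10.6 in replicate 3, against 4.59 to 6.58 on the fed arrays. None of these 17 genes passed the interaction test, although most rose in both genotypes. Without PPARα-null fasted replicates 1 and 3, 14 of the 17 were positive, with a median interaction of 5.31. Enterocyte markers were abundant on all arrays, and 0 of 8 measured passed.

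The interaction passed an adjusted p of 0.05 for 2354 probe sets, 23.8% of those tested. In 1444 of them (14.6% of those tested) it was positive and in 910 (9.22%) negative. This split depended on the scaling: with each array centred on its own median, 1079 were positive and 1266 negative, and with quantile normalization of all arrays, 1240 and 1109. The 2354 probe sets represent 1810 genes, and the sizes ranged from 0.31 to 4.74 on the log2 scale. Interactions are given below as this log2 value ± SE, from 3 arrays in each of 4 groups, with p-values adjusted over all tested probe sets. Without PPARα-null fasted replicates 1 and 3, whose pancreas markers were high, 1430 probe sets were called, a setting that leaves 1 array in that group and assumes that it varies like the others. Because the tissue was bulk intestine, fewer cells of a type and less RNA per cell cannot be told apart in any of these values. In 2143 of the called probe sets the change upon fasting was larger in PPARα-null than in wild-type mice, compared with 7016 of all 9874 tested. The 3 PPARα-null fasted arrays were below all 9 other arrays in 1305 of the called probe sets and above all of them in 604. The 3 wild-type fasted arrays were below all others in 246 and above in 32. Over all tested probe sets, the PPARα-null fasted arrays stood apart on either side in 3227 and the wild-type fasted arrays in 957. All these comparisons of single arrays used the deposited values. The common shift was left in them and lowers fasted arrays of both genotypes, which adds to the counts below and takes from those above.

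The same interaction can be read as the difference between genotypes after fasting minus that in fed mice. Taking a fold above 1.3 with an unadjusted p under 0.01, the genotypes differed in 258 of 9874 probe sets when fed and in 2984 when fasted. Among the called probe sets, 94 differed when fed and 2007 when fasted. The median size of the genotype difference over called probe sets was 0.12 when fed and 0.69 when fasted. Over all tested probe sets it was 0.11 when fed and 0.26 when fasted. Calls were made on how this difference changed between the states, so the wider gap among called probe sets follows in part from that choice.

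The same thresholds served to count changes upon fasting within a genotype. Over all tested probe sets, 1074 rose (10.9%) and 760 fell (7.7%) in wild-type mice, and 2000 rose (20.3%) and 2315 fell (23.4%) in PPARα-null mice. Of the 2354 called probe sets, 1030 fell and 596 rose in PPARα-null mice only, together 1626. Here only means that the other genotype did not pass the thresholds, and the wild-type change of these 1030 ranged from −1.20 to 0.58. In wild-type mice only, 83 rose and 41 fell, together 124. A further 202 rose and 166 fell in both genotypes, and 208 passed in neither. In 28 probe sets the genotypes changed in opposite directions. These splits depended on the common shift. Counted on the deposited values, without taking it out, 24 rose and 156 fell in wild-type mice only, 495 rose and 826 fell in PPARα-null mice only, and 67 rose and 559 fell in both genotypes. The scatter of the changes in both genotypes shows these classes.

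**Figure D1:**
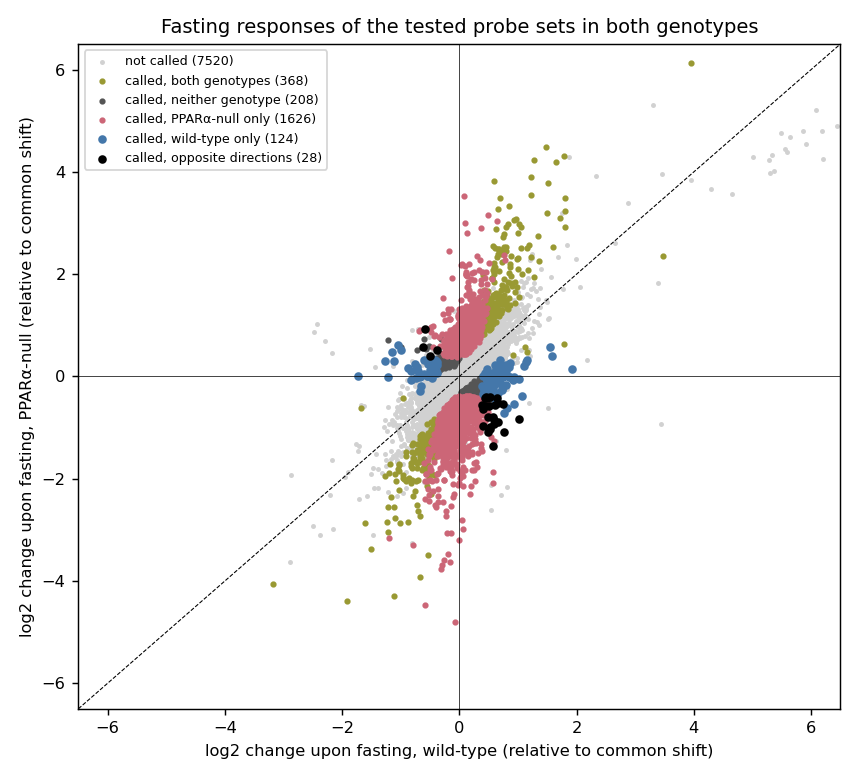
Each point is 1 of the 9874 tested probe sets, with its log2 change upon fasting relative to the common shift in wild-type mice (horizontal) and in PPARα-null mice (vertical); the dashed line marks equal changes. Called probe sets lie away from the line, mostly stretched along the vertical axis, and the 28 with opposite directions lie to the upper left and lower right of the origin.

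Genes of fatty acid oxidation were among the few that rose upon fasting in wild-type mice only. The clearest were a pair of enoyl-CoA isomerases, which shift double bonds so that unsaturated fatty acids can enter β-oxidation. Eci1, the mitochondrial enzyme, read 234, 345 and 384 in wild-type fed and 385, 374 and 455 in wild-type fasted mice, and 195, 187 and 169 in PPARα-null fed and 131, 111 and 118 in PPARα-null fasted mice. The PPARα-null arrays lay below every wild-type array. Fasted arrays were below the fed ones in PPARα-null mice and overlapped them at the upper end in wild-type mice. The interaction of Eci1 was 0.98 ± 0.22 (limma, adjusted p = 0.00749). Ech1, which acts in mitochondria and peroxisomes, read 971, 1093 and 1131 in wild-type fed and 1377, 1391 and 1484 in wild-type fasted mice. In PPARα-null mice it read 1034, 1038 and 1018 when fed and 875, 850.1 and 896 when fasted. Fed arrays of both genotypes overlapped, and as deposited the fasted arrays of both genotypes lay on either side of them. Relative to the common shift, Ech1 rose by 0.71 in wild-type mice and had a value of 0.06 in PPARα-null mice. Its interaction was 0.65 ± 0.11 (limma, adjusted p = 0.00141). Acadvl, the very long-chain acyl-CoA dehydrogenase of the first step of mitochondrial β-oxidation, read 653, 739 and 834 in wild-type fed mice and 929, 874 and 1021 after fasting. It read 479, 418 and 476 in PPARα-null fed and 412, 423 and 400.2 in PPARα-null fasted mice, so that wild-type arrays were higher in both states and the fasted ones highest. Its interaction was 0.50 ± 0.14 (limma, adjusted p = 0.0251), and 0.41 to 0.59 as each array was left out in turn. Leaving out any of these ended the call: replicate 1 of wild-type fed mice, replicate 3 of wild-type fasted mice, PPARα-null fed replicates 1 or 3, or PPARα-null fasted replicate 3. It was also lost with each array centred on its median.

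The largest positive interaction with a rise in wild-type mice only belonged to the probe set shared by Cyp4a31 and Cyp4a10, genes of cytochromes P450 that hydroxylate the end of fatty acid chains. It read 43.7, 165 and 166 in wild-type fed and 330.2, 249.8 and 419 in wild-type fasted mice. In PPARα-null mice it read 5.96, 5.94 and 4.47 when fed and 4.94, 5.17 and 4.49 when fasted, that is, below the level of 20 on all 6 arrays. The interaction was 1.77 ± 0.56 (limma, adjusted p = 0.0362). Wild-type fed replicate 1 stood low, and the value ranged from 1.13 to 2.09 as each array was left out. The call was lost (limma, adjusted p up to 0.0773) without wild-type fasted replicates 1 or 3, PPARα-null fed replicates 1 or 2, or any PPARα-null fasted array. It was also lost with a pseudocount of 16, at a value of 1.49, and with trended and robust variances. The same held without the filter on level and with that filter applied before eBayes. Plin2, which coats lipid droplets, read 596, 600.0 and 638 in wild-type fed and 752, 652 and 665 in wild-type fasted mice. It read 561, 534 and 574 in PPARα-null fed and 487, 503 and 499.8 in PPARα-null fasted mice, a small difference of 0.33 ± 0.11 (limma, adjusted p = 0.0472) that stayed called only without wild-type fasted replicate 2 or 3, with a range of 0.27 to 0.37.

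**Figure D2:**
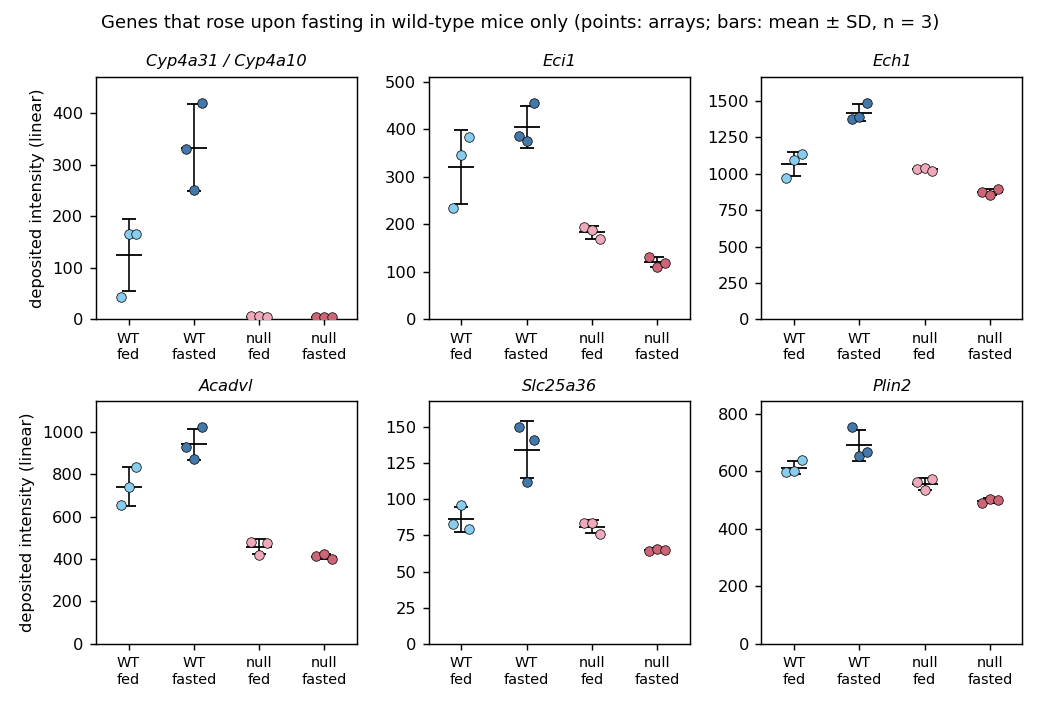
Deposited intensity (linear axis from 0) of 6 probe sets on each array, in wild-type (WT) and PPARα-null (null) mice, fed or fasted; points are arrays and bars the mean ± SD of 3. The mean of the wild-type fasted arrays is the highest in each panel, and that of the fasted PPARα-null arrays the lowest. The common shift, by which fasted arrays read lower, is left in.

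Most other genes of fatty acid oxidation did not share this pattern. Of 16 measured genes of mitochondrial β-oxidation 4 had a positive and 2 a negative interaction, with a median of 0.09, and of 14 genes of peroxisomal oxidation 2 were positive and 2 negative, with a median of 0.08. With each array centred on its median, the former count was 2 positive and 3 negative, and without PPARα-null fasted replicates 1 and 3 it was 1 and 0. Among all 6107 genes, represented by their most abundant probe set, 16% were positive and 8.58% negative, with a median of 0.06. Acadm, the medium-chain acyl-CoA dehydrogenase, read 881, 869 and 901 in wild-type fed and 765, 748 and 865 in wild-type fasted mice. It read 904, 888 and 900.3 in PPARα-null fed and 580.4, 579 and 574 in PPARα-null fasted mice, where all arrays lay below the other 9, with an interaction of 0.47 ± 0.11 (limma, adjusted p = 0.00749). Conversely Acaa2, the thiolase of the last step, had a negative interaction of −0.59 ± 0.15 (limma, adjusted p = 0.0111) and rose by 0.69 in wild-type and by 1.28 in PPARα-null mice, whereas its other 2 probe sets, at −0.43 and −0.25, were not called. Eci2, a further enoyl-CoA isomerase, likewise rose in both genotypes and more in PPARα-null mice, with −0.54 ± 0.16 (limma, adjusted p = 0.0267), a call that was lost without any 1 of 5 arrays.

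The carnitine shuttle, which carries fatty acyl groups into mitochondria, was divided as well. Cpt1a, the enzyme of the outer membrane and the controlled step, read 361, 388 and 408 in wild-type fed and 542, 506 and 584 in wild-type fasted mice. In PPARα-null mice it read 199.6, 213 and 235 when fed and 522, 481 and 436 when fasted. Fed PPARα-null arrays were the lowest and the fasted arrays of both genotypes overlapped, with an interaction of −0.66 ± 0.14 (limma, adjusted p = 0.00498). The other 2 probe sets of Cpt1a, not called, gave −0.09 and −0.03. Cpt2, the partner enzyme of the inner membrane, fell by 0.48 in PPARα-null mice and had a value of 0.02 in wild-type mice, with an interaction of 0.51 ± 0.11 (limma, adjusted p = 0.00714). Crot, the carnitine octanoyltransferase of peroxisomes, had 0.89 ± 0.20 (limma, adjusted p = 0.00762). The carrier Slc25a20 rose in both genotypes, by 0.66 and 0.97, and its interaction of −0.30 ± 0.12 did not pass (limma, adjusted p = 0.0863), nor did that of its second probe set, at −0.57.

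The study named 8 genes as PPARα-dependent from these samples. Its criterion was a change in wild-type mice (fold above 1.3, p under 0.01) and none in knockout mice, which differs from an interaction test. The study also reported quantitative RT-PCR of Cyp4a10, Abca1 and Slc25a36 as backing for their differential expression. Of the 8, Cyp4a10 shares the probe set described above, the other 7 had probe sets of their own, and 2 of the 7 passed the interaction test. Because the list was chosen on these samples, its direction is not independent evidence. Slc25a36, a nucleotide carrier of the inner mitochondrial membrane, read 83.1, 95.8 and 79.7 in wild-type fed and 149.9, 112 and 141 in wild-type fasted mice. It read 83.8, 83.6 and 76.0 in PPARα-null fed and 64.1, 65.9 and 65.3 in PPARα-null fasted mice. The wild-type fasted arrays lay above all others, with an interaction of 0.95 ± 0.16 (limma, adjusted p = 0.00108), and the second probe set gave 0.66 ± 0.13 (limma, adjusted p = 0.00314). Relative to the common shift, the former probe set changed by 0.93 in wild-type and by −0.02 in PPARα-null mice. Slc26a2, a sulphate transporter, read 47.1, 48.6 and 54.6 in wild-type fed and 49.0, 62.5 and 64.6 in wild-type fasted mice with its first probe set. It read 60.0, 58.2 and 60.7 in PPARα-null fed and 34.8, 37.1 and 38.3 in PPARα-null fasted mice. Fed and fasted arrays overlapped in wild-type mice and did not in PPARα-null mice. Its interaction was 0.92 ± 0.15 (limma, adjusted p = 0.00101), with a rise of 0.52 in wild-type and a fall of 0.40 in PPARα-null mice. The second probe set of Slc26a2, of higher intensity, gave 0.49 ± 0.14 (limma, adjusted p = 0.0211) with a value of 0.11 in wild-type mice, and this call was lost without wild-type fed replicate 3.

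The other 5 genes of that list did not pass the interaction test, which is not the study's criterion. The serotonin transporter Slc6a4 had an interaction of 0.33 ± 0.13 (limma, adjusted p = 0.0848). The short-chain fatty acid transporter Slc5a8 had 0.36 ± 0.14 (limma, adjusted p = 0.0841). Slc5a8 rose in both genotypes relative to the common shift. The study listed no change for it in knockout mice, but its methods describe no removal of such a shift, so the baselines may differ. Values were 0.32 ± 0.16 for the sulfotransferase Chst4, 0.15 ± 0.12 for the microsomal glutathione transferase Mgst1 and 0.81 ± 0.51 for the cholesterol exporter Abca1. For Abca1 the arrays of a group were spread widely, from 34.2 to 97.0 in PPARα-null fed mice.

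The 41 probe sets that fell in wild-type mice only included genes of bile acid handling in the ileum. Fabp6, which binds bile acids inside ileal enterocytes, read 7231, 7898 and 6457 in wild-type fed and 2043, 2798 and 2764 in wild-type fasted mice. In PPARα-null mice it read 7422, 8395 and 5992 when fed and 5656, 6227 and 5584 when fasted. The wild-type fasted arrays alone stood apart, below all 9 others, with an interaction of −1.21 ± 0.20 (limma, adjusted p = 0.00127). Slc51a, a subunit of the exporter that moves bile acids to the blood, read 1154, 1014 and 992 in wild-type fed and 611, 663 and 689.9 in wild-type fasted mice, and 961, 1006 and 1022 in PPARα-null fed and 1010.1, 1034 and 914 in PPARα-null fasted mice. Here too the wild-type fasted arrays were below all others, with −0.67 ± 0.13 (limma, adjusted p = 0.00242). Slc10a2, the importer of the brush border, had −0.95 ± 0.23 (limma, adjusted p = 0.0113) from a rise in PPARα-null mice only. These are all 3 measured ileal markers. The summed intensity of the 3 was 2679 to 3492 in wild-type fasted mice, compared with 6547 to 9439 on the other arrays. Most of this sum came from Fabp6, so that it shows little of Slc10a2. The bile acid receptor Nr1h4, known as FXR, had −0.84 ± 0.26 (limma, adjusted p = 0.0359), a call that was lost without any 1 of 6 arrays.

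Further falls in wild-type mice only were seen in unrelated genes. Ces1g, a carboxylesterase, read 201, 233 and 271 in wild-type fed and 44.2, 69.0 and 60.4 in wild-type fasted mice, and 258, 232 and 157 in PPARα-null fed and 177, 160.4 and 180.0 in PPARα-null fasted mice. Its interaction was −1.74 ± 0.27 (limma, adjusted p = 0.000708). The histone gene H2ac19, the Golgi stacking protein gene Gorasp2 and the secreted kinase-like gene Dipk2a had −0.93 ± 0.11, −0.68 ± 0.12 and −1.41 ± 0.26, but a second probe set of Gorasp2, at −0.25, and one of Dipk2a, at 0.14, were not called. G0s2, an inhibitor of the lipase that starts the breakdown of stored triglyceride, read 16.7, 27.4 and 38.2 in wild-type fed and 8.48, 8.8 and 8.87 in wild-type fasted mice, and 12.3, 15.2 and 11.5 in PPARα-null fed and 10.2, 15.9 and 13.5 in PPARα-null fasted mice. The fasted wild-type arrays were again the lowest, with −1.58 ± 0.34 (limma, adjusted p = 0.00565), although the mean was above 20 in wild-type fed mice only and the value −0.79 with a pseudocount of 16. The lipase itself, Pnpla2, rose in PPARα-null mice only, with −0.59 ± 0.16 (limma, adjusted p = 0.0217), and ranged from −0.73 to −0.51 as arrays were left out. This call needed replicate 2 of 3 groups, namely wild-type fed, wild-type fasted and PPARα-null fed mice.

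Nrf2 targets and genes of glutathione metabolism, which protect against oxidants and electrophilic compounds, were called in both directions. Of 21 measured, 5 had a negative and 3 a positive interaction, with a median of −0.30, and with a pseudocount of 16 the counts were 1 and 3. Calls of the glutathione transferases Gstm1, Gsta2 and Gsta3 rested on arrays with wide spreads. Gstm1 read 670.1, 1242 and 1322 in wild-type fed and 164, 558 and 504 in wild-type fasted mice. It read 634, 1067 and 693 in PPARα-null fed and 830.1, 1378 and 966 in PPARα-null fasted mice, with an interaction of −1.94 ± 0.58 (limma, adjusted p = 0.029). Replicate 1 was the lowest of each group, and the call was lost without any 1 of 5 arrays, at values of −2.25 to −1.37. Gsta3 gave −1.53 ± 0.46 and Gsta2 −1.57 ± 0.49, with calls lost without any 1 of 5 and of 7 arrays, and all 3 of these calls were lost with a pseudocount of 16. Gclc, which makes the precursor of glutathione, read 103, 95.2 and 163 in wild-type fed and 40.1, 64.6 and 78.6 in wild-type fasted mice, and 94.2, 107 and 86.5 in PPARα-null fed and 146, 194 and 106 in PPARα-null fasted mice. It rose by 0.89 in PPARα-null mice only, against −0.69 in wild-type mice, an interaction of −1.58 ± 0.38 (limma, adjusted p = 0.00995). Srxn1, which repairs peroxiredoxins, went the other way with 0.70 ± 0.13 (limma, adjusted p = 0.0021), while its other 2 probe sets, at 0.18 and 0.16, were not called. Keap1, the inhibitor of Nrf2, was positive as well, with 0.79 ± 0.21.

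Opposite responses were rare. In 24 of the 28 probe sets the transcript rose in wild-type and fell in PPARα-null mice, by 0.39 to 1.01 and by −0.40 to −1.36, and in 4 the reverse was seen. On the deposited values the balance was turned, with 4 that rose in wild-type mice and 22 of the reverse kind. Vwa5a, of uncertain function, read 81.4, 93.7 and 88.6 in wild-type fed and 132, 171 and 132 in wild-type fasted mice. It read 87.8, 93.5 and 109 in PPARα-null fed and 44.3, 42.9 and 44.1 in PPARα-null fasted mice. Fed arrays of both genotypes overlapped, all wild-type fasted arrays were above them and all PPARα-null fasted arrays below, and the interaction was 1.85 ± 0.16 (limma, adjusted p = 1.29e-05). Vwa5a thus moved in opposite directions in the deposited values as well. Cpne1, a calcium-dependent membrane-binding protein, had 1.57 ± 0.17 (limma, adjusted p = 5.68e-05). Tcta and Pcmtd2 had 1.53 ± 0.14 and 1.36 ± 0.17 with 1 probe set each, while a second called probe set of either gene, at 1.32 and 0.84, fell in PPARα-null mice only. Stx4a, a syntaxin of vesicle fusion at the plasma membrane, had 1.03 ± 0.13. Myc, a transcription factor that drives growth, read 18.6, 24.1 and 31.0 in wild-type fed and 26.7, 27.8 and 33.7 in wild-type fasted mice. It read 20.7, 29.4 and 20.7 in PPARα-null fed and 10.3, 10.8 and 8.96 in PPARα-null fasted mice. The wild-type arrays overlapped and the fasted PPARα-null arrays were the lowest of all, with 1.504 ± 0.26 (limma, adjusted p = 0.00139).

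The reverse pattern was carried by Coa7, Anp32e, Ctdp1 and 1 probe set without a gene symbol. Coa7, an assembly factor of respiratory chain complexes, read 48.5, 55.9 and 61.2 in wild-type fed and 28.1, 33.4 and 26.4 in wild-type fasted mice, and 54.8, 49.6 and 50.5 in PPARα-null fed and 57.4, 70.3 and 59.3 in PPARα-null fasted mice. Its interaction was −1.18 ± 0.17 (limma, adjusted p = 0.000382). Anp32e, a histone chaperone, and Ctdp1, a phosphatase of RNA polymerase II, had −0.91 ± 0.13 and −0.91 ± 0.17, and the second probe set of Anp32e, at 0.07, was not called. Fewer opposite responses were counted, 10 each, with a pseudocount of 16 and with the pancreas signal as a covariate.

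Falls in PPARα-null mice only made up the largest class, and it held the largest interaction measured. Nfe2l2, which encodes the antioxidant transcription factor Nrf2, read 1425, 1560.5 and 1611 in wild-type fed and 1005, 1239.5 and 1337 in wild-type fasted mice. It read 1618, 1523 and 1518 in PPARα-null fed mice and 50.3, 60.0 and 30.2 in PPARα-null fasted mice. The lowest of the other 9 arrays read 1005, and the interaction was 4.74 ± 0.28 (limma, adjusted p = 6.4e-07). No other probe set of Nfe2l2 was tested. Median changes of the measured Nrf2 targets and glutathione genes were −0.70 in wild-type and −0.32 in PPARα-null mice. A link between these and the Nfe2l2 reading was not tested. Tardbp, the RNA-binding protein TDP-43, read 575, 520.4 and 477 in wild-type fed and 256, 319 and 236 in wild-type fasted mice with the probe set of the largest difference. It read 503, 595 and 527 in PPARα-null fed and 29.8, 27.6 and 29.7 in PPARα-null fasted mice, with 3.26 ± 0.17 (limma, adjusted p = 1.78e-07). Tardbp fell in both genotypes, but far more in PPARα-null mice. Its other 3 probe sets gave 1.15, 0.91 and, not called, −0.14. Zfand5, which assists the proteasome, read 560.0, 511 and 532 in wild-type fed and 378, 379.6 and 413 in wild-type fasted mice and 489, 593 and 595 in PPARα-null fed and 35.2, 39.8 and 34.4 in PPARα-null fasted mice, with 3.48 ± 0.14 (limma, adjusted p = 3.22e-08). Its other 2 probe sets gave −0.25 and −0.38 and were not called. Rras2, a small GTPase, had 3.04 ± 0.13 (limma, adjusted p = 3.9e-08) with 1 probe set and −0.27 with the other.

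Further genes with large positive interactions differed in function. Nat8f4, of the N-acetyltransferase family, had 3.38 ± 0.29 and was called with all 3 of its probe sets. Trmt1l, a tRNA methyltransferase homologue, had 3.29 ± 0.28 and Tmem140 3.19 ± 0.24. Fam136a, which fell by 0.54 in wild-type and by 3.49 in PPARα-null mice, had 2.95 ± 0.14. Frmd4b had 2.85 ± 0.37 with 1 of 3 probe sets. The noncoding RNA Neat1, which builds paraspeckles in the nucleus, read 3003, 2931 and 3084 in wild-type fed and 2243, 2428 and 2493 in wild-type fasted mice. It read 3133, 3144 and 3223 in PPARα-null fed and 751, 690.3 and 807 in PPARα-null fasted mice, the last being the only low ones, with 1.75 ± 0.11 (limma, adjusted p = 1.54e-06). Atoh1, the transcription factor that sets the secretory lineage of the gut epithelium, read 129.7, 159 and 156 in wild-type fed and 96.1, 93.0 and 119 in wild-type fasted mice, and 162, 166 and 112 in PPARα-null fed and 15.9, 31.1 and 11.1 in PPARα-null fasted mice. The interaction of Atoh1 was 2.50 ± 0.40 (limma, adjusted p = 0.000936). Of the 7 goblet cell markers measured, 1 passed, Clca1 at 0.42 ± 0.14, and of 4 Paneth cell markers 1, Pla2g2a at −1.36 ± 0.32. The Clca1 call was lost without any 1 of 9 arrays.

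The most negative interaction of the called probe sets was that of Nr1d1, the clock repressor Rev-erbα, which rose in PPARα-null mice only. It read 49.99, 69.2 and 96.9 in wild-type fed and 54.1, 60.0 and 65.2 in wild-type fasted mice. In PPARα-null mice it read 34.6, 33.3 and 65.2 when fed and 474, 432 and 307 when fasted, and only the latter arrays stood apart. The interaction was −3.46 ± 0.38 (limma, adjusted p = 6.99e-05). Ces1d, a carboxylesterase that hydrolyses triglyceride, read 38.8, 36.1 and 32.9 in wild-type fed and 41.5, 42.2 and 47.6 in wild-type fasted mice. It read 33.4, 48.2 and 24.9 in PPARα-null fed and 397, 346 and 441 in PPARα-null fasted mice, with −3.23 ± 0.26 (limma, adjusted p = 7.7e-06), and its second probe set gave −2.62. Slc20a1, a phosphate transporter, and Pim3, a serine kinase, had −2.90 ± 0.35 and −2.81 ± 0.23, each with both probe sets called. This value of Slc20a1 came from a probe set with a mean above 20 in PPARα-null fasted mice only and was −1.68 with a pseudocount of 16, and its more abundant probe set gave −2.63. Ces1d rose in both genotypes, and Pim3 with 1 of its 2 probe sets. Ap2a2, a subunit of the clathrin adaptor, had −3.00 ± 0.21, but 3 of its 5 probe sets were not called, and likewise 4 of 6 for Gna13, at −2.27 ± 0.17.

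Several genes that spare glucose rose more in PPARα-null mice. Pdk4, the kinase that switches off pyruvate oxidation and a known PPARα target, read 149, 150.1 and 147 in wild-type fed and 579.6, 391 and 315 in wild-type fasted mice. It read 52.4, 80.3 and 48.0 in PPARα-null fed and 1064, 1108 and 707 in PPARα-null fasted mice. The fed PPARα-null arrays were the lowest and the fasted ones the highest, with −2.52 ± 0.33 (limma, adjusted p = 0.000248). Pck1, the controlled enzyme of gluconeogenesis, read 693, 684 and 823 in wild-type fed and 2216, 2251 and 1786 in wild-type fasted mice, and 527, 625 and 392 in PPARα-null fed and 3499.7, 2892 and 3031 in PPARα-null fasted mice, with −1.13 ± 0.22 (limma, adjusted p = 0.00334). Txnip, which restrains glucose uptake, rose in both genotypes with its more abundant probe set, by 0.48 in wild-type and 1.05 in PPARα-null mice, an interaction of −0.57 ± 0.15 (limma, adjusted p = 0.0137). Its other probe set had −1.07 ± 0.14 (limma, adjusted p = 0.000234). These were the 3 genes called, all negative, of 13 measured for this function, with a median of −0.21. Among all genes, 8.58% were negative, with a median of 0.06. Dgat2, which makes triglyceride, read 531, 451 and 612 in wild-type fed and 882, 749 and 576 in wild-type fasted mice and 405, 444 and 439 in PPARα-null fed and 2093, 2027 and 1898 in PPARα-null fasted mice, with −1.77 ± 0.20 (limma, adjusted p = 9.81e-05).

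The summed intensity of the 4 measured adipocyte markers was 1681 to 2029 in PPARα-null fasted mice, compared with 873 to 1034 in wild-type fasted and 459 to 943 in fed mice. Fabp4, the fatty acid binding protein of adipocytes and 1 of the 4, read 476, 412 and 478 in wild-type fed and 582, 603 and 759.8 in wild-type fasted mice. It read 254, 301 and 445 in PPARα-null fed and 1333, 1611 and 1361 in PPARα-null fasted mice, with −1.64 ± 0.25 (limma, adjusted p = 0.000631), and it was the only 1 of the 4 called. Most of the summed intensity came from Fabp4, so that the sum shows little of the rest of the 4. The mean log2 intensity of the 4 was 7.28 to 7.73 in PPARα-null fasted and 6.87 to 7.01 in wild-type fasted mice. It was 6.01 to 7.35 in PPARα-null fed mice, and the fed arrays of both genotypes overlapped the PPARα-null fasted ones. The 3 other adipocyte markers on the array, of 9 listed, stayed below a mean of 20 in every group. Pparg, the adipogenic relative of PPARα, had −1.002 ± 0.27 (limma, adjusted p = 0.0168). Ttr, the only hepatocyte marker of 8 with a mean above 20 in any group, read 15.6, 16.5 and 17.7 in wild-type fed and 47.6, 43.4 and 26.7 in wild-type fasted mice with its most abundant probe set. It read 20.4, 22.6 and 18.7 in PPARα-null fed and 189.99, 123 and 152 in PPARα-null fasted mice. Its interaction was −1.70 ± 0.28 (limma, adjusted p = 0.00106), and the other 2 probe sets gave −1.97 and −0.999. The part of other tissues in the rises of Ces1d, Pdk4, Pck1 and Dgat2 was not tested.

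**Figure D3:**
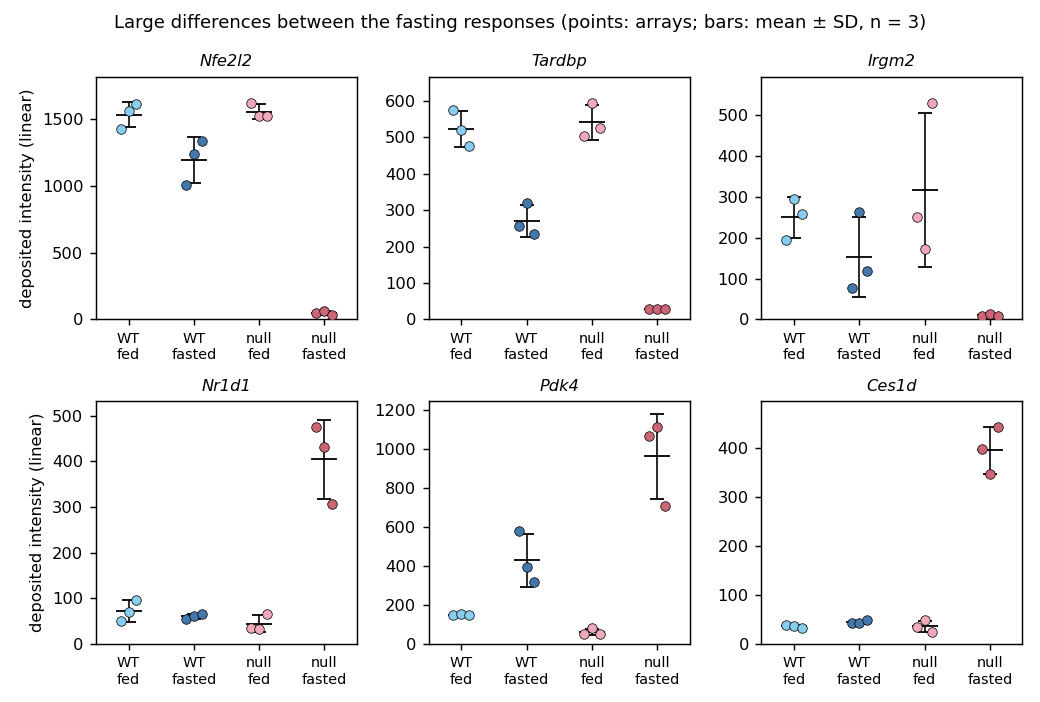
Deposited intensity (linear axis from 0) of 6 probe sets with large interactions on each array, in wild-type (WT) and PPARα-null (null) mice, fed or fasted; points are arrays and bars the mean ± SD of 3. The fasted PPARα-null arrays are the lowest for Nfe2l2, Tardbp and Irgm2 and the highest for Nr1d1, Pdk4 and Ces1d.

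Gene lists were described by their counts and medians, with 1 probe set per gene, beside those of all genes. Those most unlike the 16% positive and 8.58% negative of all genes were ER chaperones, with 14 positive and 1 negative of 16 measured, and genes that respond to glucocorticoids and FoxO factors, with 8 negative and 0 positive of 18. The plot of called shares by list shows all lists with at least 6 measured genes.

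**Figure D4:**
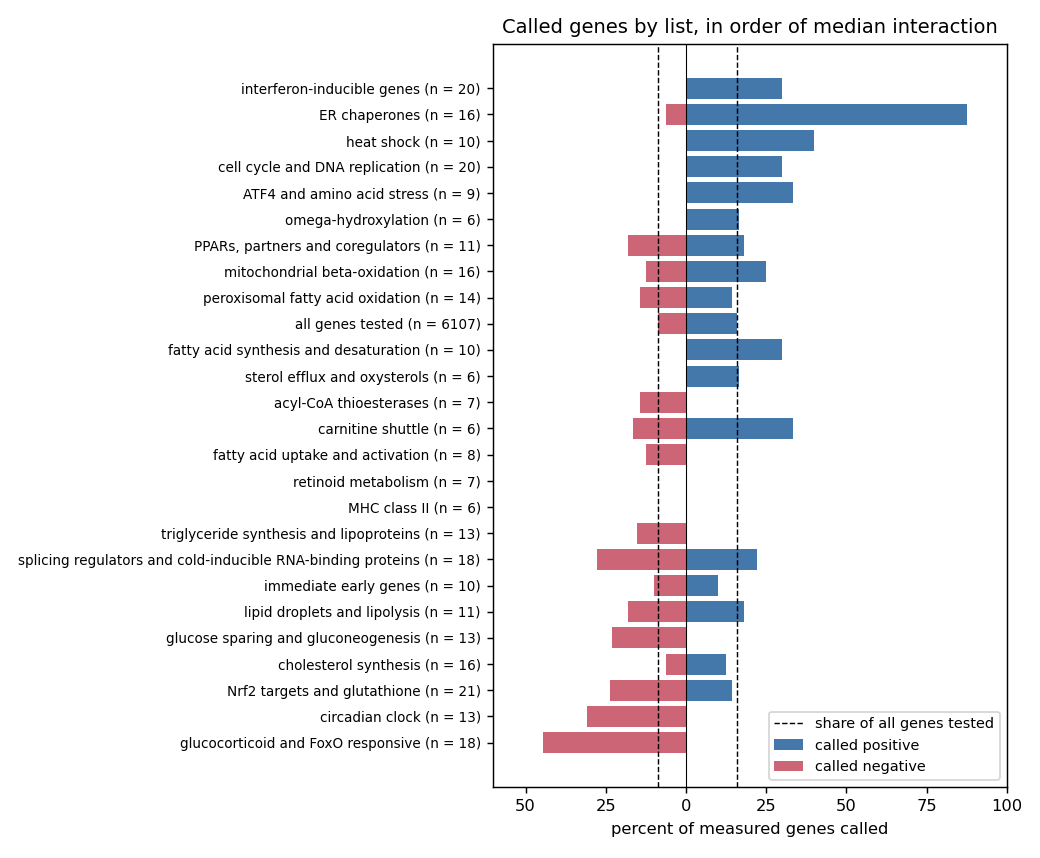
Bars give the percent of measured genes of each list with a positive interaction (blue, to the right) or a negative one (red, to the left) at an adjusted p under 0.05, with the number measured in brackets, ordered by the median interaction of the list. Dashed lines mark the shares of all 6107 genes; ER chaperones extend far beyond the right line, and glucocorticoid and FoxO responsive genes beyond the left one.

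ER chaperones fold secreted and membrane proteins in the endoplasmic reticulum, and many of them answer to the unfolded protein response. Their median change upon fasting was −0.15 in wild-type and −0.78 in PPARα-null mice. Hspa5, the main ER chaperone BiP, read 2612, 2254 and 2823 in wild-type fed and 1812, 1867 and 1924 in wild-type fasted mice. It read 2389.6, 2668 and 2849 in PPARα-null fed and 1142, 1020.5 and 1112 in PPARα-null fasted mice. The last group was below all 9 other arrays, with an interaction of 0.82 ± 0.14 (limma, adjusted p = 0.00141). Creld2 had 1.47 ± 0.22 (limma, adjusted p = 0.000653), the disulphide isomerase Pdia6 0.94 ± 0.18 (limma, adjusted p = 0.00291) and Hsp90b1, the ER form of HSP90, 0.86 ± 0.15 (limma, adjusted p = 0.00149). The 1 negative gene was Herpud1, part of the machinery that degrades misfolded ER proteins, which read 104, 135 and 150.4 in wild-type fed and 107, 125 and 142 in wild-type fasted mice. It read 94.8, 109.9 and 131 in PPARα-null fed and 454, 332 and 346 in PPARα-null fasted mice, with −1.80 ± 0.24 (limma, adjusted p = 0.000263), and its more abundant probe set gave −1.43. Pdia3 was the gene not called, at 0.30 ± 0.14.

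Secretory cells such as those of the exocrine pancreas are rich in ER chaperones, and the pancreas markers differed between PPARα-null fasted arrays as given above. With the pancreas signal as a covariate 13 ER chaperone genes were positive and 1 negative, with a median of 0.59. Within groups this signal varied most among PPARα-null fasted arrays, where replicate 2 alone was low. The adjustment therefore rests largely on that array and cannot decide the part of pancreas in these values. Without PPARα-null fasted replicates 1 and 3, 8 were positive and 1 negative, with a median of 0.51. With each array centred on its median, 9 were positive and 1 negative, of the same 16.

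**Figure D5:**
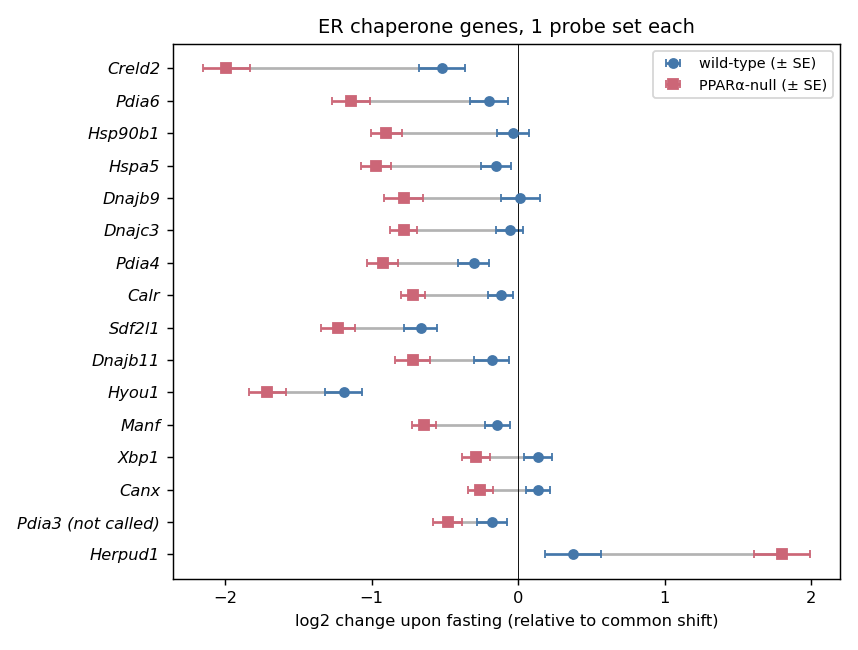
Log2 change upon fasting relative to the common shift, ± SE, of the 16 measured ER chaperone genes in wild-type (circles) and PPARα-null mice (squares), 1 probe set per gene, ordered by the interaction. The PPARα-null change lies to the left of the wild-type change in all genes except Herpud1.

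Many ER chaperone promoters hold the ER stress element, CCAAT and CCACG with 9 unspecified bases between them, to which NF-Y and ATF6 bind. In the 250 bases upstream of the start of transcription (RefSeq, build GRCm38.p6, both strands searched), it was present for 7 of the 14 genes of this list that had such a window, 50% of them. It was present for 11 of the 5020 tested genes with a window, or 0.219%. Windows of 3 genes with a positive interaction are shown, 5′ to 3′ on the strand of the gene, with the element in capitals.

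Hspa5, chr2:34771840-34772089, plus strand, element from −65: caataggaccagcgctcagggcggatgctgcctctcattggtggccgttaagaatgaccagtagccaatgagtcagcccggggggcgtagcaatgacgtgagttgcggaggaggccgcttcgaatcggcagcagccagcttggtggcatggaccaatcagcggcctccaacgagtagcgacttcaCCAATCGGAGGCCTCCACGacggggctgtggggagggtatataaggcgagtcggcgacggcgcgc
Pdia6, chr12:17266339-17266588, plus strand, element from −98: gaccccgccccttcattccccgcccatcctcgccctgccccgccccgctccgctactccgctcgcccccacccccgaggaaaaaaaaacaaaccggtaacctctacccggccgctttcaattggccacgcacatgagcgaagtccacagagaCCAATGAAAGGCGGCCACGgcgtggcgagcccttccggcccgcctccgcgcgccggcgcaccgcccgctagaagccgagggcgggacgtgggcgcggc
Creld2, chr15:88819396-88819645, plus strand, element on the opposite strand from −126: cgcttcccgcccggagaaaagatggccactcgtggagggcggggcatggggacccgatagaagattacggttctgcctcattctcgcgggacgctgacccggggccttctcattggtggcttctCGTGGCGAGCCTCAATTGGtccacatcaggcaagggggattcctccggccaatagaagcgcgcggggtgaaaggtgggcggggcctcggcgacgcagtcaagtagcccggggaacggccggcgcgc

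Genes that respond to glucocorticoids and FoxO factors mark fasting and stress in many tissues. Their median change was 0.32 in wild-type and 1.82 in PPARα-null mice, and the median interaction −1.26. Errfi1, an inhibitor of the EGF receptor, read 62.5, 79.4 and 68.7 in wild-type fed and 62.0, 76.4 and 50.1 in wild-type fasted mice. It read 45.7, 77.4 and 50.9 in PPARα-null fed and 375, 239.7 and 367 in PPARα-null fasted mice, with −2.68 ± 0.31 (limma, adjusted p = 0.000102). The more abundant probe set of Errfi1, which stands for the gene in the list, rose in both genotypes, by 1.19 and 2.57, with −1.38 ± 0.32 (limma, adjusted p = 0.00803). Ddit4, an inhibitor of mTOR signalling, had −2.15 ± 0.36 (limma, adjusted p = 0.00117) and Klf9, a transcription factor, −2.40 ± 0.31 (limma, adjusted p = 0.000202), with all 3 probe sets of Klf9 called and −1.34 for the most abundant. Without PPARα-null fasted replicates 1 and 3, 6 of the 18 genes were called, all negative. The metallothioneins bind zinc and respond to both metals and glucocorticoids. The abundant probe set of Mt1 rose in both genotypes, by 1.74 in wild-type and 3.19 in PPARα-null mice, and its interaction of −1.44 ± 0.74 was not called (limma, adjusted p = 0.183). A second probe set of Mt1 read 7.79, 7.85 and 7.44 in wild-type fed and 6.7, 10.3 and 9.75 in wild-type fasted mice, and 7.41, 6.87 and 7.02 in PPARα-null fed and 65.5, 35.7 and 57.5 in PPARα-null fasted mice. It passed the level of 20 through the last group alone, and its value of −2.67 ± 0.28 (limma, adjusted p = 4.79e-05) became −1.48 with a pseudocount of 16. Mt2 read 86.6, 76.5 and 92.6 in wild-type fed mice and 124, 1685 and 1534 in wild-type fasted mice. In PPARα-null mice Mt2 read 89.8, 169 and 83.7 when fed and 3359.8, 2875 and 4449 when fasted. Wild-type fasted replicate 1 stayed near the fed level, and the interaction of −2.004 ± 1.03 did not pass (limma, adjusted p = 0.181). Mtf1, the zinc sensor that controls metallothionein genes, had −2.25 ± 0.16 with 1 probe set and, not called, 0.53 with the other. Nr3c1, the glucocorticoid receptor itself, was not called at 0.40 ± 0.19.

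Of 13 measured genes of the circadian clock, which keeps daily time in most cells, 4 were called, all negative, with a median of −0.83. Beside Nr1d1 these were Per1, Hlf and Cry2. Per1, a repressor of the clock, read 6.67, 9.23 and 8.51 in wild-type fed and 10.8, 13.9 and 8.28 in wild-type fasted mice, and 6.75, 8.15 and 7.69 in PPARα-null fed and 37.1, 28.1 and 36.3 in PPARα-null fasted mice. Its interaction was −1.75 ± 0.26 (limma, adjusted p = 0.000496). Hlf, an output factor, and Cry2, a further repressor, had −1.37 ± 0.17 (limma, adjusted p = 0.000175) and −1.32 ± 0.32 (limma, adjusted p = 0.01), and only the fasted PPARα-null arrays lay clearly above the rest. Per1 and Hlf had a mean above 20 in PPARα-null fasted mice only and so entered the test through the group in which they were high, and with a pseudocount of 16 their values were −0.92 and −0.69. Dbp and Nr1d2, which are clock outputs of the same kind, did not pass, at −0.49 ± 0.53 and −0.28 ± 0.31. Without PPARα-null fasted replicates 1 and 3, 3 clock genes were called, and Cry2 was not among them. Fasting started when the lights came on. CLOCK and BMAL1 bind the E-box, CACGTG, which 3 of 12 clock genes held upstream (25%), against 10.5% of tested genes. The share was also 25% for heat shock genes, 21.4% for genes that respond to glucocorticoids and FoxO factors and 14.3% for ER chaperones. It was 0% for interferon-inducible and mitochondrial β-oxidation genes. The window of Per1 is shown with this element in capitals.

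Per1, chr11:69098699-69098948, plus strand, E-box from −166: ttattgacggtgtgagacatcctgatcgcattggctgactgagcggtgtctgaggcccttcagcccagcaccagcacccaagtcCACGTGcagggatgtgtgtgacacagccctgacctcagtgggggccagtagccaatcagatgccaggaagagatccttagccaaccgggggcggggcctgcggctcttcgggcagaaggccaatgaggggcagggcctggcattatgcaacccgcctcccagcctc

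Interferon-inducible genes, which defend cells against viruses and other microbes, had wide spreads. Of 20 measured, 6 were positive and 0 negative, with a median of 0.81, and the positive count was 3 without PPARα-null fasted replicates 1 and 3. Irgm2, a GTPase of the defence against intracellular microbes, read 195, 295 and 258 in wild-type fed and 76.7, 262 and 118 in wild-type fasted mice. It read 249.6, 172 and 529 in PPARα-null fed and 8.78, 14.1 and 8.85 in PPARα-null fasted mice, with 3.89 ± 0.61 (limma, adjusted p = 0.00077). Ifit1, which binds foreign RNA, read 397, 393 and 336 in wild-type fed and 223, 239 and 224 in wild-type fasted mice. In PPARα-null mice it read 425, 379.6 and 1623 when fed and 85.1, 119.7 and 73.5 when fasted. In PPARα-null fed mice, replicate 3 was high for Ifit1 and Irgm2 and for Oasl2. Without this array the interaction of Ifit1 was 1.43 ± 0.23 (SE, limma, adjusted p = 0.00131) instead of 2.10 ± 0.57 (limma, adjusted p = 0.0187). Psmb9, a subunit of the immunoproteasome, had 1.53 ± 0.29 (limma, adjusted p = 0.00283), and Parp14, which is not on the list, 3.32 ± 0.37 (limma, adjusted p = 7.71e-05). Oas1a, Irf7 and Tap1 did not pass, at 0.56 ± 0.34, 0.13 ± 0.31 and 0.37 ± 0.41. The core of the interferon-stimulated response element, GAAA repeated after 2 unspecified bases, was present upstream of 11 of the 18 genes of this list with a window (61.1%), against 3.35% of tested genes. The window of Ifit1 held it at 2 places, both on the opposite strand.

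Ifit1, chr19:34640639-34640888, plus strand, elements from −104 and −85: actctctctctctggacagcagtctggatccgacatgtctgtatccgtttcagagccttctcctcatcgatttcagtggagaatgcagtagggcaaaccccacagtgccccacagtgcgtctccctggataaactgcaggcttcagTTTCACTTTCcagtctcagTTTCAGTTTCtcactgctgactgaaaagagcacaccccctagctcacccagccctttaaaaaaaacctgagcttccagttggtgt

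Most B and plasma cell markers fell more in PPARα-null than in wild-type mice, with median changes of −1.24 and −0.31. The summed intensity of 6 measured B and plasma cell markers was 1740 to 2548 in PPARα-null fasted mice, compared with 3310 to 4139 in wild-type fasted and 4236 to 5340 in fed mice, and 4 of the 6 were called, all positive. Ighm, the heavy chain of IgM, read 211, 196 and 161 in wild-type fed and 67.9, 49.5 and 205 in wild-type fasted mice, and 244, 192 and 144 in PPARα-null fed and 23.0, 18.5 and 8.85 in PPARα-null fasted mice. Its interaction was 2.51 ± 0.63 (limma, adjusted p = 0.013), and 3 of its 7 probe sets were called. With a pseudocount of 16 this value was 1.73 and its call was lost. So were the calls of the markers Cd79b, at 0.53, and Ms4a1, at 0.39. With each array centred on its median, 3 of the 6 markers were called. Of 6 measured markers of T and intraepithelial lymphocytes 1 was called, Gzmb, a protease of cytotoxic T cells, at 1.96 ± 0.35 (limma, adjusted p = 0.00192). The Gzmb call was lost with a pseudocount of 16, at 0.88. The median change of the 6 was −0.33 in wild-type and −0.39 in PPARα-null mice, with a median interaction of 0.13. In addition, 0 of 6 MHC class II genes and 0 of 4 macrophage markers passed. The part of these cells in the falls of other genes was not tested.

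Heat shock genes, the chaperones of the cytosol, had 4 positive and 0 negative of 10 measured, with a median of 0.38, or 2 positive both with each array centred on its median and without PPARα-null fasted replicates 1 and 3. Hsph1 read 243, 266 and 438 in wild-type fed and 81.5, 113 and 71.5 in wild-type fasted mice, and 186, 345 and 359.5 in PPARα-null fed and 21.6, 23.5 and 22.0 in PPARα-null fasted mice, with 1.86 ± 0.37 (limma, adjusted p = 0.00351). It fell in both genotypes and further in the latter, and its second probe set, at 0.44, was not called. Dnajb1 had 1.18 ± 0.23 (limma, adjusted p = 0.00283) with 1 probe set and −0.32, not called, with the other. Hspa1b, which ranged from 41.1 to 248 in wild-type fed mice, did not pass at 0.42 ± 0.78. Of 20 measured genes of the cell cycle 6 were positive and 0 negative, with a median of 0.31, or 3 positive in either of these settings. Top2a, the topoisomerase of dividing cells, had 0.76 ± 0.21 (limma, adjusted p = 0.0192), whereas Pcna and Mcm6 did not pass at 0.24 ± 0.12 and 0.14 ± 0.18. Both measured crypt stem cell markers were positive, Axin2 at 1.35 ± 0.15 (limma, adjusted p = 8.91e-05) and Smoc2 at 0.86 ± 0.18 (limma, adjusted p = 0.00527), the latter with 1 of its 2 probe sets. Of ATF4 and amino acid stress genes 3 of 9 were positive, Cebpg at 2.40 ± 0.16, Ddit3 at 0.99 ± 0.21 and Shmt2 at 0.94 ± 0.22, while Atf4 itself had −0.08 ± 0.20 and was not called.

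Genes of lipid synthesis were called in part. Of 10 measured genes of fatty acid synthesis and desaturation 3 were positive, namely the desaturase genes Scd2 and Fads2 and the elongase gene Elovl6. Scd2 read 465, 477 and 511 in wild-type fed and 33.2, 49.2 and 50.03 in wild-type fasted mice, and 205, 289.9 and 165 in PPARα-null fed and 10.4, 11.3 and 9.76 in PPARα-null fasted mice. It fell steeply in both genotypes, and the interaction of 0.88 ± 0.27 (limma, adjusted p = 0.0304) was lost without any 1 of 7 arrays and was 0.06 with a pseudocount of 16. The second probe set of Scd2 gave −0.93 and was not called. Of 16 genes of cholesterol synthesis 2 were positive and 1 negative. Among all genes, 16% were positive and 8.58% negative. Retinoid metabolism had 0 of 7 called. Apoa1, Apoa4 and Apoc3, abundant apolipoproteins of intestinal lipoproteins, did not pass at −0.08 ± 0.10, −0.14 ± 0.11 and −0.15 ± 0.15, and neither did Fabp1 and Fabp2, the main fatty acid binding proteins of the enterocyte, at 0.33 ± 0.13 and −0.30 ± 0.10.

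Among receptors and coregulators, the coactivator Ppargc1a stood out. It read 80.9, 72.8 and 74.3 in wild-type fed and 61.9, 85.6 and 91.0 in wild-type fasted mice, and 71.7, 76.4 and 74.6 in PPARα-null fed and 29.5, 34.1 and 24.6 in PPARα-null fasted mice. The fasted PPARα-null arrays were below all others, with 1.40 ± 0.20 (limma, adjusted p = 0.000481), and 3 of its 4 probe sets were called, the most abundant at 1.03. Hnf4a, a receptor that maintains enterocyte identity, had 0.47 ± 0.13 (limma, adjusted p = 0.0163) with 1 of its 4 probe sets. Rxra, the partner of PPARα, rose in both genotypes and did not pass at −0.29 ± 0.17. Of 11 genes of this list 2 were positive and 2 negative, beside 16% and 8.58% of all genes.

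PPARα itself binds a repeat of the half-site AGGTCA. A single half-site was present upstream of 3 of the 14 genes of mitochondrial β-oxidation with a window (21.4%), against 13.2% of tested genes. Among the other lists searched, the share was 37.5% for heat shock, 33.3% for clock and 14.3% for ER chaperone genes. It was 11.1% for interferon-inducible genes and 7.14% for genes that respond to glucocorticoids and FoxO factors. Acadvl is shown as a gene that rose in wild-type mice only and held it, in capitals.

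Acadvl, chr11:70015429-70015678, minus strand, half-site from −87: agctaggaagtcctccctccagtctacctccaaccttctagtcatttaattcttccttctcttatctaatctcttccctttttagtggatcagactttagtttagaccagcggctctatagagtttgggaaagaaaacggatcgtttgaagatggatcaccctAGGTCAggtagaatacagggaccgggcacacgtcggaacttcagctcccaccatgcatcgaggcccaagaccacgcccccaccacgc

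Splicing regulators and cold-inducible RNA-binding proteins were called in both directions, 4 positive and 5 negative of 18 by the most abundant probe set. Cirbp, which rises when cells cool, read 31.5, 40.6 and 25.9 in wild-type fed and 106, 53.7 and 95.0 in wild-type fasted mice. It read 32.0, 36.3 and 24.7 in PPARα-null fed and 491, 464 and 409 in PPARα-null fasted mice. Its level rose in both genotypes, most in PPARα-null mice, with −2.55 ± 0.33 (limma, adjusted p = 0.000232). Srsf1, which promotes the use of exons, had 1.23 ± 0.18 (limma, adjusted p = 0.000517). The related Srsf3 gave 1.05 ± 0.20 (limma, adjusted p = 0.00287) with a dim probe set and 0.08, not called, with its most abundant one. Hnrnpdl had −1.04 ± 0.19 (limma, adjusted p = 0.00204) and Hnrnpa1 −0.62 ± 0.16 (limma, adjusted p = 0.0137). Srsf6 was called with all 3 probe sets, 2 of them negative, at −1.21 and −1.18, and 1 positive, at 1.06.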

How the data were processed

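RNA of the small intestine was hybridised to Affymetrix mouse 430A arrays with 22690 probe sets. The authors normalized the arrays with GCRMA (version 2.20 per the submitters' processing notes) and deposited linear intensities, 1 column per array. Fed arrays share one distribution of values and fasted arrays another (array medians 12.7 to 12.8 and 11.1 to 11.3), so both sets may have been normalized apart, and a shift common to both genotypes cancels in the interaction. Arrays of a group correlated at r = 0.991 to 0.997. The number of arrays limits the precision.

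Intensities were log2-transformed and fitted with limma 3.58.1 in R 4.3.3 as 4 group means, with eBayes on all probe sets. Probe sets with a mean above 20 in any group were kept, and Benjamini-Hochberg adjustment was made over these 9874. For lists, the most abundant probe set stood for a gene. Of all probe sets, 20393 had 1 symbol, 691 several and 1606 none in the platform annotation, and only those with 1 were named, apart from the one shared by Cyp4a31 and Cyp4a10.

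Named genes were the 15 largest interactions in each direction, up to 5 per response class, up to 4 called members of a list in each direction and up to 3 not called, and Ppara with the genes the study singled out, and some were left out of the text. Genes and lists were chosen with earlier results of these data known. The method was tested on simulated data. Alternatives covered filters, thresholds, variance models, array weights, scaling, pseudocount, choice of probe sets, the replicate number as a block, pancreas signal and arrays left out. Upstream windows came from RefSeq tables (GRCm38.p6), first listed start of a gene.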

Additional observations from a re-analysis of the deposited data

Results flagged for a closer look

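The 2354 probe sets with an interaction past an adjusted p of 0.05 (limma) are those in which the effect of fasting differed between wild-type and PPARα-null mice by the test of the difference itself. In 28 of them both genotypes changed beyond a fold of 1.3 in opposite directions, relative to the common shift.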

How the results depend on the processing

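No interaction of a named, called probe set changed sign under any of the alternatives run. Of 165 such probe sets, 25 lost their call without the filter on level, 18 with a pseudocount of 16, 14 with arrays centred on their medians, 6 with trended and robust variances and 39 without PPARα-null fasted replicates 1 and 3. Called probe sets numbered 1331 with a mean above 100 required (834 positive, 497 negative, 56 in wild-type mice only, 906 in PPARα-null mice only, 10 opposite), since fewer were tested. With 1 probe set per gene there were 1520 (531 negative, 81 in wild-type mice only, 1051 in PPARα-null mice only). Without PPARα-null fasted replicates 1 and 3 there were 1430 (889 positive, 541 negative, 1005 in PPARα-null mice only, 18 opposite). An adjusted p under 0.1 gave 187 in wild-type mice only. Opposite responses numbered 10 with a pseudocount of 16 and 10 with the pancreas covariate, where the cause was not tested. Leaving out each array in turn gave 1975 to 2269 called, 1202 to 1412 positive, 751 to 924 negative, 92 to 147 in wild-type mice only, 1385 to 1636 in PPARα-null mice only and 21 to 34 opposite.

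Replicate numbers are shared between groups. Over all tested probe sets, deviations of same-numbered arrays from their group means correlated at r = −0.20 to 0.23, with 5 of 18 pairs over 0.1. Of 12 arrays, 5 correlated best with their own number. Same-numbered arrays were therefore not treated as pairs, but a factor that they share in some genes was not tested. With the replicate number as a block, 2254 probe sets were called.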

Other observations

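Probe sets of one gene often differed. Of 2013 genes with several tested probe sets, 190 had all of them called in 1 direction, 584 had some called in 1 direction, 32 had calls in both directions and 1207 had none. The following genes were chosen after their values were seen. Csnk1d, a kinase that acts on clock proteins, gave −0.91 ± 0.21 and −0.84 ± 0.19 with 2 probe sets, and 0.69 ± 0.12, 1.15 ± 0.19 and 1.15 ± 0.12 with 3 others. Cflar, an inhibitor of cell death, gave −0.93 ± 0.18 and 2.30 ± 0.18. Stx3, a syntaxin of apical membrane transport, gave −1.14 ± 0.20 and −0.70 ± 0.13 against 1.14 ± 0.21. For such genes no single value stands for the transcript, and which part of the transcript each probe set covers was not analysed here.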
